A study of Mus musculus with 6 samples.

Results

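The 8 genes described here, in mouse liver, were grouped under binding and metabolism of vitamin A (retinol) and its products. Some stand here by gene family, and the action of their enzymes was not tested. They are the plasma carrier gene Rbp4, the retinol dehydrogenase gene Rdh16, the retinal reductase gene Dhrs3, the retinal dehydrogenase family genes Aldh1a1, Aldh1a2 and Aldh1a7, and the retinoic acid hydroxylase genes Cyp26a1 and Cyp26b1. They were taken by gene symbol from a deposited table of 32597 genes, and all 8 were found there. The livers came from wild-type male C57BL/6 mice, an inbred strain, with no treatment named in the labels. Adult mice of 6 months were compared with young mice of about 1 month, whose age is written as 3 weeks in the sample titles and as 3 to 4 weeks in the age field. Each age had 3 RNA-seq libraries, and each library was made from liver RNA pooled from 3 mice. The study set both ages side by side to find genes whose liver expression differs between them.

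Retinol leaves the liver bound to retinol-binding protein, and most of the body's reserve is held as retinyl esters in hepatic stellate cells. Inside cells, retinol is reversibly oxidized to retinal, retinal is irreversibly oxidized to retinoic acid, and retinoic acid is cleared by cytochrome P450 enzymes of the Cyp26 family. Retinoic acid acts through nuclear receptors of the RAR and RXR families, and some of the genes that clear it or hold back its formation, such as Cyp26a1 and Dhrs3, are themselves induced by it.

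The deposited table gives 1 FPKM value per gene and age (fragments scaled to transcript length and to the fragments mapped), which the authors had already combined over the 3 libraries. No value per library, no standard deviation and no depth per value can therefore be given, and the only measure of replicate error is the authors' own q-value (a p-value adjusted for multiple testing). The comparison covers 11741 genes that carry an authors' test and have at least 1 FPKM in adult or young liver. A gene is said to have risen or fallen in adult liver where it is one of these and the authors' deposited table gives it a q under 0.05. This held for 7.47% of the genes compared, with 3.99% risen and 3.48% fallen. The median log2((adult FPKM + 1)/(young FPKM + 1)) over these genes was 0.0033. The hepatocyte genes Apoa1, with 6800 FPKM in adult and 7868 FPKM in young liver, and Hnf4a, with 112 FPKM in adult and 106 FPKM in young liver, were both abundant, as the tissue label requires. Alb, the albumin gene, is listed at 0 at both ages with the authors' status LOWDATA, so it has no usable value.

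Among the 8 genes, 2 rose in adult liver (Rdh16 and Cyp26a1), 1 fell (Cyp26b1), and 4 were not called (Rbp4, Aldh1a1, Aldh1a7 and Dhrs3). The remaining gene, Aldh1a2, stayed under 1 FPKM at both ages and was therefore outside the genes compared. Over all genes compared, 7.47% were called. The levels per transcript length spanned a wide range and stood in the same order at both ages. Rbp4 was highest, followed by Aldh1a1, Aldh1a7, Dhrs3, Rdh16, Cyp26a1, Cyp26b1 and Aldh1a2. With no spread per library, neighbours in this order cannot be compared beyond their error. Rbp4 alone made up 69.3% of the summed FPKM of the 8 genes in adult and 71.3% in young liver, and Aldh1a1 made up 22.0% in adult and 19.6% in young liver.

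**Figure D1:**
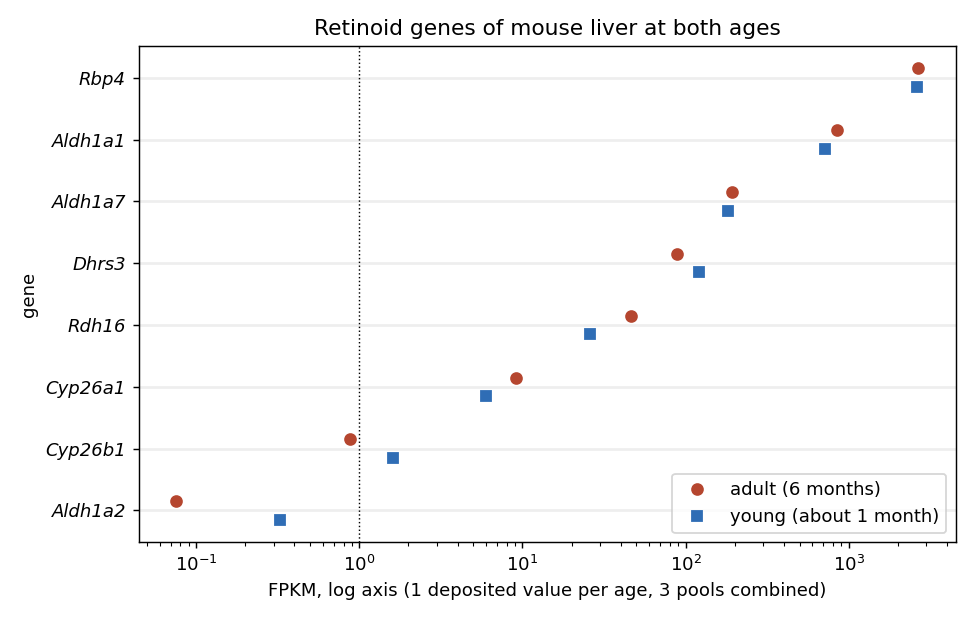
Deposited FPKM of the 8 genes in adult liver (circles) and young liver (squares) on a log axis, 1 value per gene and age with no error available; the dotted line marks 1 FPKM. Rdh16 and Cyp26a1 lie further right in adult liver, Cyp26b1 and Aldh1a2 further left, and Rbp4 at nearly the same place.

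Rbp4, which carries retinol from the liver into plasma, had 2675 FPKM in adult and 2626 FPKM in young liver. More than 99% of the genes compared were lower at either age (99.7% at both). The adult value was 1.84% above the young one, and the authors' deposited table gives it a q of 0.997. Its plasma partner Ttr (transthyretin), which keeps the small retinol-binding protein from being filtered out by the kidney, had 5951 FPKM in adult and 8081 FPKM in young liver, and was not called (q of 0.461 by the authors' deposited table). In the binding and transport list a single gene fell. Fabp5, a fatty acid-binding protein that can also carry retinoic acid to the nucleus, had 64.5 FPKM in adult and 178 FPKM in young liver and was 2.76-fold lower in adult liver (q of 0.00189 by the authors' deposited table). In pooled whole liver, fewer cells of a type and less RNA per cell cannot be told apart. Of the 12 listed genes of this group, 5 could be compared, 1 fell and none rose, with a median log2 fold of -0.40, beside 3.48% of all genes compared that fell. Stra6l, a liver receptor gene for the plasma carrier, had 47.9 FPKM in adult and 63.4 FPKM in young liver and was not called (q of 0.122 by the authors' deposited table). Stra6, the retinol transporter of many other tissues, is listed at 0 in adult and at 0.0113 FPKM in young liver.

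Rdh16 had the largest called difference of the 8 genes on the log2(FPKM + 1) scale. The gene encodes a microsomal short-chain dehydrogenase that oxidizes retinol and also acts on hydroxysteroids. It had 46.1 FPKM in adult and 26.1 FPKM in young liver, so it was 1.77-fold higher in adult liver. On the log2(FPKM + 1) scale the difference was 0.80, and 93.4% of the genes compared had a smaller one in either direction. In the authors' deposited log2 folds, without the added 1, Cyp26b1 differed more (-0.87) than Rdh16 (0.82). The Rdh16 q of 0.00189 is the smallest that the authors' deposited table holds, shared by 554 genes. Among all genes the adult level lay above 85.7% of those compared and the young level above 78.1%.

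Rdh16 lies on chromosome 10 of the mouse build GRCm38, at 127801152 to 127846565 on the + strand, among close relatives. Its nearest compared neighbour below it, 8.46 kb away, is Rdh9, which encodes a similar dehydrogenase. Rdh9 also rose, with 67.6 FPKM in adult and 37.3 FPKM in young liver (1.81-fold, q of 0.0123 by the authors' deposited table). Hsd17b6, a hydroxysteroid and retinol dehydrogenase gene whose lower end lies 190 kb above that of Rdh16, rose too, with 122 FPKM in adult and 67.2 FPKM in young liver (1.81-fold, q of 0.00189 by the authors' deposited table). These 3 were the only risen genes of the 12 compared in the retinol oxidation list, and none of that list fell at q under 0.05, beside 3.99% and 3.48% of all genes compared. The list's median log2 fold was 0.06. Adh1, the abundant alcohol dehydrogenase gene that also acts on retinol, had 1330 FPKM in adult and 1882 FPKM in young liver and was not called (q of 0.148 by the authors' deposited table).

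Other dehydrogenase genes of the same stretch were not called at q under 0.05. Rdh7, the most abundant of them, had 586 FPKM in adult and 598 FPKM in young liver (q of 0.997 by the authors' deposited table). It stood 12.7-fold above Rdh16 in adult and 22.9-fold above it in young liver, per transcript length. Rdh16f2, listed in the table under the older symbol BC089597 and the nearest compared neighbour above Rdh16 at 19.9 kb, had 78.4 FPKM in adult and 108 FPKM in young liver (q of 0.0619 by the authors' deposited table). With a threshold of 0.1, or with the deposited p-values adjusted by Benjamini-Hochberg, it was called as lower in adult liver. Sdr9c7 had 40.5 FPKM in adult and 38.5 FPKM in young liver. Rdh1 had 0.296 FPKM in adult and 0.272 FPKM in young liver, and Rdh19 had 0.0292 FPKM in adult and 0.0107 FPKM in young liver. Genes of this stretch of 241 kb thus included risen and uncalled members, and the difference between them was not tested.

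**Figure D2:**
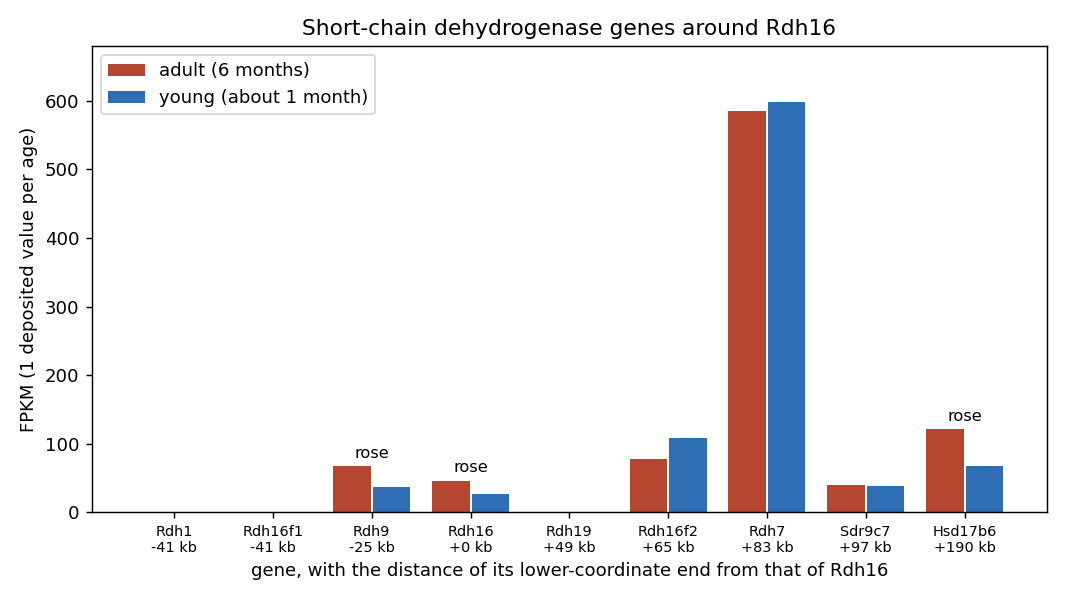
Deposited FPKM (bars from 0) of the 9 short-chain dehydrogenase genes around Rdh16, in genome order and not to scale along the axis, adult left and young right for each gene, with the distance of each gene's lower end from that of Rdh16. The word above a pair of bars marks a call in the authors' deposited table; Rdh9, Rdh16 and Hsd17b6 are called, while Rdh7 is highest at both ages.

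The coding sequences of these relatives are close enough for reads to be shared. Rdh16 and Rdh9 were identical at 96.3% of 951 aligned coding bases, with an unbroken identical run of 229 bases. Of all 50-base stretches of the Rdh16 transcript, 12.4% also occurred in that of Rdh9. Smaller shares occurred in Rdh16f1 (11.6%), Rdh19 (3.96%), Rdh1 (3.20%), Hsd17b6 (1.74%) and Rdh7 (0.79%). No 50-base stretch of Rdh16 occurred in Rdh16f2, although their coding sequences were 91.5% identical. The first 120 coding bases of Rdh16 and Rdh9, from GENCODE M21 on GRCm38, show how the pair that rose can be told apart. Capitals mark the 10 bases at which they differ.
Rdh16: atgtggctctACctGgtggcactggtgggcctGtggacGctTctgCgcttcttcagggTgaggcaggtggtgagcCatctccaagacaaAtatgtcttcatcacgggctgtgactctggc
Rdh9: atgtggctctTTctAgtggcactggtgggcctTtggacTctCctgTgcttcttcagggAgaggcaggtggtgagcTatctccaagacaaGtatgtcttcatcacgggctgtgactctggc
How shared reads were divided is not stated, so the split between Rdh16 and Rdh9 is uncertain. To a smaller extent the same holds for Rdh16 and its other relatives that share such stretches. Rdh16f1, listed as Gm28046, overlaps Rdh9, and 87.9% of its 50-base stretches occur there. Of the Rdh9 stretches, 90.1% occur in Rdh16f1, so the split between them is uncertain as well. Rdh16f1 is listed at 0.0117 FPKM in adult and 0.0174 FPKM in young liver without a test.

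Dhrs3, which reduces retinal back to retinol, had 88.1 FPKM in adult and 122 FPKM in young liver. It was 1.38-fold lower in adult liver, but the difference was not called (p of 0.00985 and q of 0.130 by the authors' deposited table). On chromosome 4 at 144892827 to 144928209, its nearest compared neighbour above it, Vps13d, had 19.0 FPKM in adult and 17.8 FPKM in young liver. Dhrs3 and Rdh16 catalyse opposite directions of the retinol and retinal interconversion. The Dhrs3 level was 1.91-fold that of Rdh16 in adult liver and 4.66-fold in young liver, per transcript length. This pair does not stand for both directions as a whole. The retinol oxidation list, with Rdh16, summed to 2792 FPKM in adult and 3239 FPKM in young liver. The retinal reduction list, with Dhrs3, summed to 225 FPKM in adult and 279 FPKM in young liver. The median log2 fold of the retinal reduction list was 0.03. Of its 5 compared genes, 1 fell and none rose, beside 3.48% of all genes compared that fell. That gene was Rdh11, a microsomal retinal reductase gene, with 32.3 FPKM in adult and 58.7 FPKM in young liver (1.82-fold lower in adult liver, q of 0.00189 by the authors' deposited table). Dhrs4, another reductase gene, had 83.3 FPKM in adult and 78.5 FPKM in young liver.

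Aldh1a1, the retinal dehydrogenase gene of adult hepatocytes, and its rodent paralog Aldh1a7 lie 49.5 kb apart on chromosome 19, on opposite strands. Aldh1a1 spans 20601961 to 20643462 and had 851 FPKM in adult and 721 FPKM in young liver. It was 18.1% higher in adult liver (q of 0.724 by the authors' deposited table). Aldh1a7 spans 20692953 to 20727562 and had 192 FPKM in adult and 181 FPKM in young liver. It was 5.89% higher in adult liver (q of 0.980 by the authors' deposited table). Neither gene was called, and with no spread per library no interval can be set on these differences. Aldh1a1 stood 4.44-fold above Aldh1a7 in adult and 3.99-fold above it in young liver, per transcript length.

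Aldh1a7 and Aldh1a1 were identical at 91.6% of 1503 coding bases, with an unbroken identical run of 100 bases, and 7.49% of the 50-base stretches of Aldh1a7 also occurred in Aldh1a1. Some of their reads could therefore belong to either gene. The first 120 coding bases, from GENCODE M21 on GRCm38, are shown because the separate values of the pair rest on such differences. Capitals mark the 10 bases that differ.
Aldh1a7: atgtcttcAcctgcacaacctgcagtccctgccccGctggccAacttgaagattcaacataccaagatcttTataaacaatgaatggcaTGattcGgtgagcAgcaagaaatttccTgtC
Aldh1a1: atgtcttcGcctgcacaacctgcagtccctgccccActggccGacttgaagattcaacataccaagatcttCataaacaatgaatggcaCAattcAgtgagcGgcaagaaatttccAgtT
The summed level of both genes, which does not depend on that split apart from transcript length, was 1043 FPKM in adult and 902 FPKM in young liver, a log2(FPKM + 1) difference of 0.21. Aldh1a2 shared no 50-base stretch with either, and its coding sequence was 66.4% identical to that of Aldh1a1.

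Other genes of the retinal oxidation list, which also holds the Aldh1a genes, were compared. The aldehyde oxidase gene Aox1, whose enzyme can oxidize retinal among many other aldehydes, rose, with 28.1 FPKM in adult and 15.7 FPKM in young liver (1.79-fold, q of 0.00189 by the authors' deposited table). Its neighbour family member Aox3 had 251 FPKM in adult and 156 FPKM in young liver and was not called (q of 0.175 by the authors' deposited table). Of the 5 compared genes of this list, 1 rose and none fell, beside 3.99% and 3.48% of all genes compared. The list's median log2 fold was 0.24.

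Aldh1a2, the retinal dehydrogenase that makes retinoic acid in the embryo and in mesothelial and stromal cells, stayed under 1 FPKM in whole liver. It had 0.0749 FPKM in adult and 0.327 FPKM in young liver, so it was 4.37-fold lower in adult liver (q of 0.00629 by the authors' deposited table). On the log2(FPKM + 1) scale the difference was only -0.30, because the added 1 exceeds both values. At most 1.58% of the genes compared were lower at either age. Among all 16290 genes tested by the authors, with no minimum on FPKM, 6.82% were called, 3.74% higher and 3.08% lower in adult liver. Its nearest compared neighbour on chromosome 9, the glycerol and water channel gene Aqp9, rose, with 210 FPKM in adult and 138 FPKM in young liver (q of 0.00189 by the authors' deposited table). Of the neighbours on the other side, Polr2m beside Aldh1a2, Pramef8 beside Dhrs3, Anxa1 beside Aldh1a1, Zfand5 beside Aldh1a7 and Fra10ac1 beside Rbp4, none was called.

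Markers of mesothelium, the cell layer on the liver surface, were also lower in adult liver. Of 6 listed markers all were lower in adult liver, and 5 of the 5 that could be compared fell, beside 3.48% of all genes compared. Of these, Upk1b and Krt19 entered the genes compared through their young values alone and could there only be lower in adult liver. Their summed level was 4.86 FPKM in adult and 16.4 FPKM in young liver, and none was listed at 0. Msln had 1.20 FPKM in adult and 4.69 FPKM in young liver, and Upk3b had 1.22 FPKM in adult and 4.49 FPKM in young liver. The median log2 fold was -1.10 for these markers, -0.71 for cholangiocyte markers and -1.42 for erythroid genes. Only markers of T and NK cells and of hepatocytes near the central vein had positive medians (1.48 and 0.60). The part of the mesothelial markers in the Aldh1a2 difference was not tested.

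The Cyp26 genes, whose enzymes hydroxylate retinoic acid for removal, went in opposite directions. Cyp26a1, the main retinoic acid hydroxylase of liver, had 9.13 FPKM in adult and 6.01 FPKM in young liver. It rose 1.52-fold in adult liver, a log2(FPKM + 1) difference of 0.53 (q of 0.0260 by the authors' deposited table). Cyp26b1, which in other tissues clears retinoic acid during limb and germ cell development, had 0.881 FPKM in adult and 1.61 FPKM in young liver. It was 1.83-fold lower in adult liver and fell by 0.47 on the log2(FPKM + 1) scale (q of 0.00494 by the authors' deposited table). Because it was under 1 FPKM in adult liver, it entered the genes compared through its young value alone and could there only be lower in adult liver. Cyp26a1 stood 10.4-fold above Cyp26b1 in adult liver and 3.73-fold above it in young liver, per transcript length. Together they had 10.01 FPKM in adult and 7.63 FPKM in young liver, of which Cyp26a1 made up 91.2% in adult and 78.9% in young liver. No 50-base stretch was shared between their transcripts, whose coding sequences were 54.2% identical.

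Cyp26c1, the third gene of the family, lies just below Cyp26a1 on chromosome 19 and had 0.105 FPKM in adult and 0.0502 FPKM in young liver (q of 0.541 by the authors' deposited table). Exoc6, the nearest compared neighbour below Cyp26a1 at 14.6 kb, had 10.7 FPKM in adult and 8.50 FPKM in young liver and was not called (q of 0.356 by the authors' deposited table). The next compared gene above it on the chromosome is Rbp4, 415 kb away. Around Cyp26b1, on chromosome 6 at 84571414 to 84593908, the neighbours Exoc6b, with 1.35 FPKM in adult and 1.42 FPKM in young liver, and Dysf, with 0.842 FPKM in adult and 1.045 FPKM in young liver, were not called. Cyp2c39, a mouse P450 gene whose enzyme also hydroxylates retinoic acid, had 1.098 FPKM in adult and 1.73 FPKM in young liver and was not called (q of 0.230 by the authors' deposited table). Of the 3 compared genes of the clearance list, 1 rose and 1 fell, beside 3.99% and 3.48% of all genes compared. The list's median log2 fold was -0.38.

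**Figure D3:**
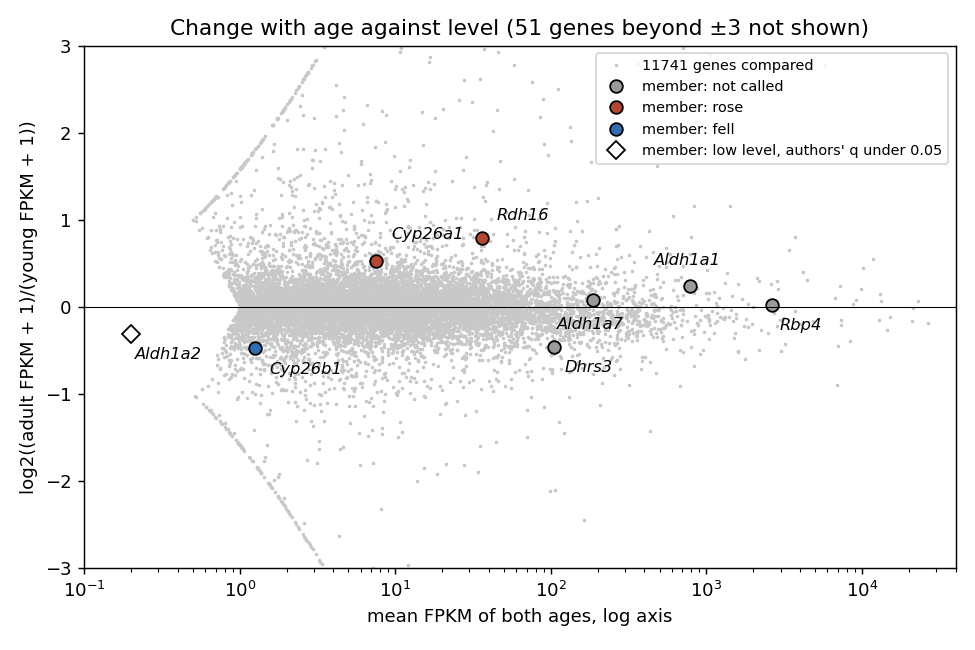
Difference between ages, log2((adult FPKM + 1)/(young FPKM + 1)), against the mean FPKM of both ages on a log axis, for the 11741 genes compared (grey points; 51 beyond the axis are not drawn) and the 8 genes described here (large symbols). Rdh16 and Cyp26a1 lie above the bulk of genes of similar level and Cyp26b1 below it; the open diamond is Aldh1a2, which was under 1 FPKM at both ages.

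Cyp26a1 and the receptor gene Rarb are textbook targets of retinoic acid, whose receptors bind pairs of half-sites. Rarb had 1.28 FPKM in adult and 2.39 FPKM in young liver, so it fell (1.87-fold lower in adult liver, q of 0.00189 by the authors' deposited table), while Cyp26a1 rose. Both promoters are shown because these targets moved in opposite directions. The windows are from RefSeq on GRCm38.p6 and run from 250 bases before to 50 bases after the annotated start. Capitals mark a direct repeat with a spacing of 5 bases (DR5), that is, 2 half-sites on the same strand with 5 bases between them. A half-site was taken as AGGTCA, the classical form, or any of its close variants, spelled AGTTCA or with a leading G as GGGTCA and likewise as GGTTCA, and both strands were searched.
Cyp26a1, chr19:37697558-37697857, + strand: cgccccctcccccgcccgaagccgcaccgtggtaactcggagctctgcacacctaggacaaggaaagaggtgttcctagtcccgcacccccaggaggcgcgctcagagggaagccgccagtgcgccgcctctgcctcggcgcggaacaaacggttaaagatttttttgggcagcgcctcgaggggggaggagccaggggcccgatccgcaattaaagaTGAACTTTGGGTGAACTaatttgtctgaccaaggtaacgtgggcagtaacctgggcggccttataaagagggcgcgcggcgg
Rarb, chr14:16575427-16575726, - strand: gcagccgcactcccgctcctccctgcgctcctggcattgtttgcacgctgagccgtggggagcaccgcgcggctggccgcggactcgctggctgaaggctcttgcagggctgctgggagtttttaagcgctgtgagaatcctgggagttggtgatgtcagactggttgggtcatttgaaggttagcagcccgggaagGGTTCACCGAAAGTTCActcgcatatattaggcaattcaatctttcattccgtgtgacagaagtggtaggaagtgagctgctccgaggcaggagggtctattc
In Cyp26a1 the repeat is read on the opposite strand and lies from 32 to 16 bases before the annotated start. In Rarb it lies from 53 to 37 bases before it. A DR5 of these letters was found in 32 of 32851 promoter windows, or 0.0974%. All 8 genes had a window in that table, 12 windows in all, and Cyp26a1 was the only one of the 8 with a DR5 there. No window of the 8 held the same half-sites spaced by 1 base, which 0.222% of all windows did, or by 2 bases, which 0.268% did. The absence of these letters says nothing about receptor binding elsewhere. Of the 31 genes with a DR5 window, 15 were found among the deposited genes, and 5 were among the genes compared. Beside Cyp26a1 and Rarb these were Blvrb, a biliverdin reductase gene that rose (130 FPKM in adult and 79.2 FPKM in young liver), and Ppbp and Gm4631, which were not called.

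Most compared genes that respond to retinoic acid or receive its signal were not called. In the response list, of only 7 compared genes, the called share was 42.9%, beside 7.47% of all genes compared. Of the 7 compared genes of the response list, 2 rose and 1 fell, with a median log2 fold of -0.0037, beside 3.99% and 3.48% of all genes compared. Next to Cyp26a1, Rarres1, a gene first found through its induction by a retinoid, rose, with 46.2 FPKM in adult and 28.0 FPKM in young liver (1.65-fold, q of 0.00189 by the authors' deposited table). The fallen gene was Rarb. Rarres2, which encodes the secreted protein chemerin, had 632 FPKM in adult and 633 FPKM in young liver. Of the 12 receptor and cofactor genes, all of which could be compared, Rarb fell and none rose, with a median log2 fold of -0.04. The called share of 8.33% was near the 7.47% of all genes compared. Rxra, the main RXR gene of liver, had 61.2 FPKM in adult and 56.4 FPKM in young liver (q of 0.949 by the authors' deposited table). Ncor1, a corepressor gene, had 31.4 FPKM in adult and 32.5 FPKM in young liver.

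Ester formation and carotene cleavage had 1 fallen gene of 5 compared, beside 3.48% of all genes compared, and a median log2 fold of -0.31. Bco1, which cleaves beta-carotene into retinal, had 2.95 FPKM in adult and 4.51 FPKM in young liver and was 1.53-fold lower in adult liver (q of 0.0348 by the authors' deposited table). Bco2, which cleaves carotenoids at another bond, had 9.74 FPKM in adult and 12.8 FPKM in young liver, while Dgat1, an acyltransferase gene, had 16.05 FPKM in adult and 14.5 FPKM in young liver. Lrat, whose enzyme forms the retinyl esters of stellate cells, had 4.91 FPKM in adult and 6.34 FPKM in young liver and was not called (q of 0.265 by the authors' deposited table).

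Over the whole retinoid pathway list of 69 genes, including the 8, 50 could be compared, 6 rose and 5 fell. Another 13 were not tested by the authors, and 6 were tested but stayed under 1 FPKM. The median log2((adult FPKM + 1)/(young FPKM + 1)) of the 50 was -0.02, beside 0.0033 over all genes compared, and 22% of the 50 were called, beside 7.47%. Without the 8 genes, 43 could be compared, of which 4 rose and 4 fell (18.6% called), with a median of -0.03. The lists were made with earlier results of these data known, so these shares are a description and no test of the pathway. The called genes thus went both ways, with risen genes in the oxidation, clearance and response lists and fallen genes in the carrier, cleavage, reduction, clearance, receptor and response lists.

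**Figure D4:**
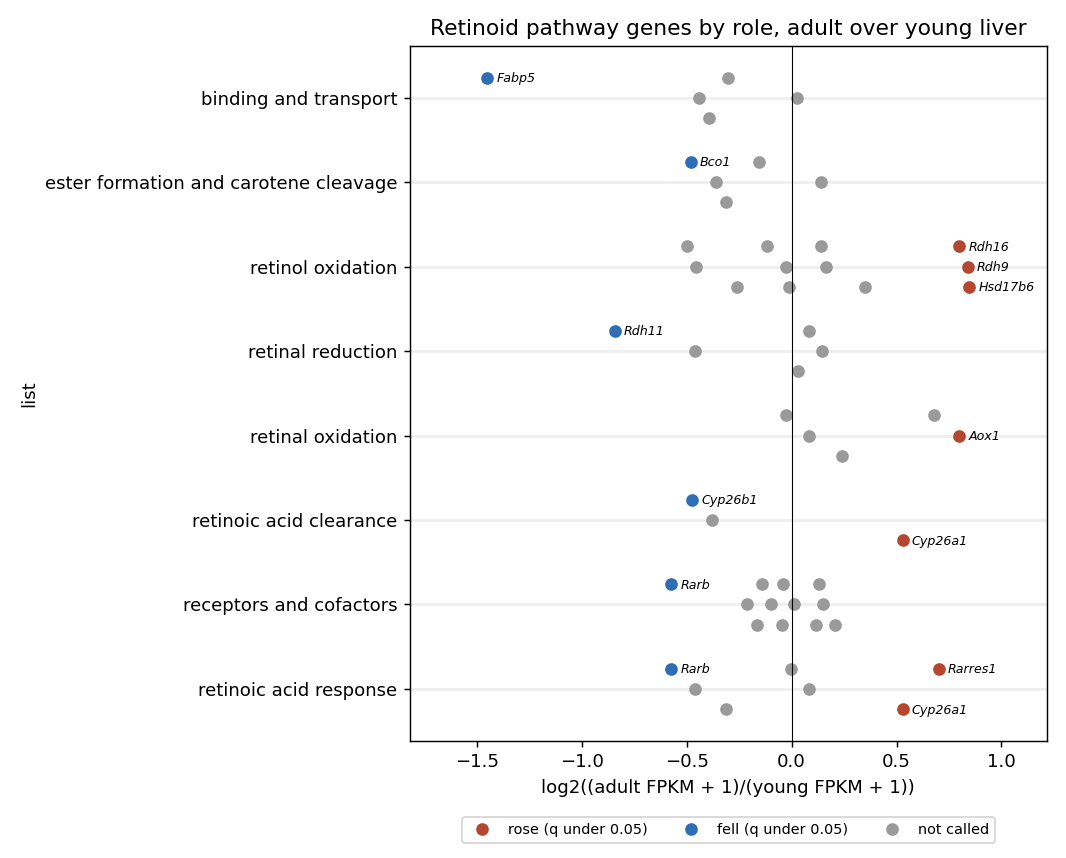
Difference between ages, log2((adult FPKM + 1)/(young FPKM + 1)), for each compared gene of the retinoid pathway lists (1 point a gene; genes in more than 1 list are drawn in each; vertical offsets within a list only separate points). Named points passed the q-value threshold of 0.05; Fabp5 is furthest to the left and Hsd17b6, Rdh9, Aox1 and Rdh16 are furthest to the right.

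Markers of the cells that handle retinoids are given beside these results. Of all genes compared, 3.99% rose and 3.48% fell. Of 13 stellate cell markers, 9 could be compared and none was called, with a median log2((adult FPKM + 1)/(young FPKM + 1)) of -0.21 and a summed level of 216 FPKM in adult and 248 FPKM in young liver. Of the 13, 10 were lower and 3 higher in adult liver, and none was listed at 0. Dcn had 109.7 FPKM in adult and 111 FPKM in young liver, and Ecm1 had 42.4 FPKM in adult and 65.1 FPKM in young liver. Lrat is itself one of the 13, so these values partly restate its lower value, and the part of the other markers in it was not tested. The hepatocyte markers had a median of -0.21 as well, so a shift of this size was not particular to stellate cells. Of 9 endothelial markers, 2 fell (Lyve1 and Oit3) and none rose, with a summed level of 105 FPKM in adult and 125 FPKM in young liver. Lyve1 had 3.47 FPKM in adult and 6.44 FPKM in young liver, and Oit3 had 6.82 FPKM in adult and 11.3 FPKM in young liver. Of the 9, 8 were lower and 1 was higher in adult liver, with a median log2 fold of -0.24. No cell source of Cyp26b1 is given by these data, and the part of these markers in its lower level was not tested either.

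Hepatocyte markers as a whole were not called, while some markers of hepatocyte position were, beside 7.47% of all genes compared (3.99% risen and 3.48% fallen). Of 10 hepatocyte markers, 9 could be compared and none passed the threshold, with a summed level of 16790 FPKM in adult and 20486 FPKM in young liver. Of 10 markers of hepatocytes near the central vein, 5 rose and none fell, and all 10 were higher in adult liver, with a summed level of 5759 FPKM in adult and 3589 FPKM in young liver. Among them Oat had 729 FPKM in adult and 236 FPKM in young liver, and Glul had 317 FPKM in adult and 216 FPKM in young liver. Of 9 markers of hepatocytes near the portal vein, 3 fell and none rose, with a summed level of 2512 FPKM in adult and 2898 FPKM in young liver. Of these 9, 8 were lower in adult liver and 1 was higher. Among the fallen ones, Ass1 had 637 FPKM in adult and 1019 FPKM in young liver, and Hal had 101 FPKM in adult and 169 FPKM in young liver. The higher one was Pck1, with 639 FPKM in adult and 465 FPKM in young liver, and it was not called. The marker values stand beside the higher Rdh16 and Cyp26a1, and their part in those differences was not tested.

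Markers of other cell types are given as counts, beside 3.99% of all genes compared that rose and 3.48% that fell. Of 7 Kupffer cell markers 2 rose, none fell and 5 were not called. The list summed to 253 FPKM in adult and 230 FPKM in young liver, with 3 markers higher and 4 lower in adult liver and a median log2 fold of -0.01. The risen markers were Cd5l, with 96.7 FPKM in adult and 63.9 FPKM in young liver, and Marco, with 25.5 FPKM in adult and 13.8 FPKM in young liver. Clec4f, not called, had 57.7 FPKM in adult and 79.6 FPKM in young liver. Of 3 compared cholangiocyte markers 2 fell, Krt19 with 0.489 FPKM in adult and 2.199 FPKM in young liver and Krt7 with 0.469 FPKM in adult and 1.40 FPKM in young liver. Both were under 1 FPKM in adult liver, so they entered the genes compared through their young values alone and could there only be lower in adult liver. Krt19 is also in the mesothelial list. All 3 compared T and NK cell markers (Cd3g, Nkg7 and Trac) rose, but they entered the genes compared through their adult values alone and could there only be higher in adult liver. Nkg7, for example, had 4.95 FPKM in adult and 0.846 FPKM in young liver, and Trac had 3.77 FPKM in adult and 0.715 FPKM in young liver. Of 3 compared erythroid genes 2 fell. Hbb-bs had 235 FPKM in adult and 634 FPKM in young liver, and Hba-a1 had 50.2 FPKM in adult and 277 FPKM in young liver. Alas2, the other compared gene, was higher in adult liver, with 73.2 FPKM in adult and 55.3 FPKM in young liver, but was not called. The only B cell marker that could be compared, Cd79b, had 1.196 FPKM in adult and 1.23 FPKM in young liver.

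**Figure D5:**
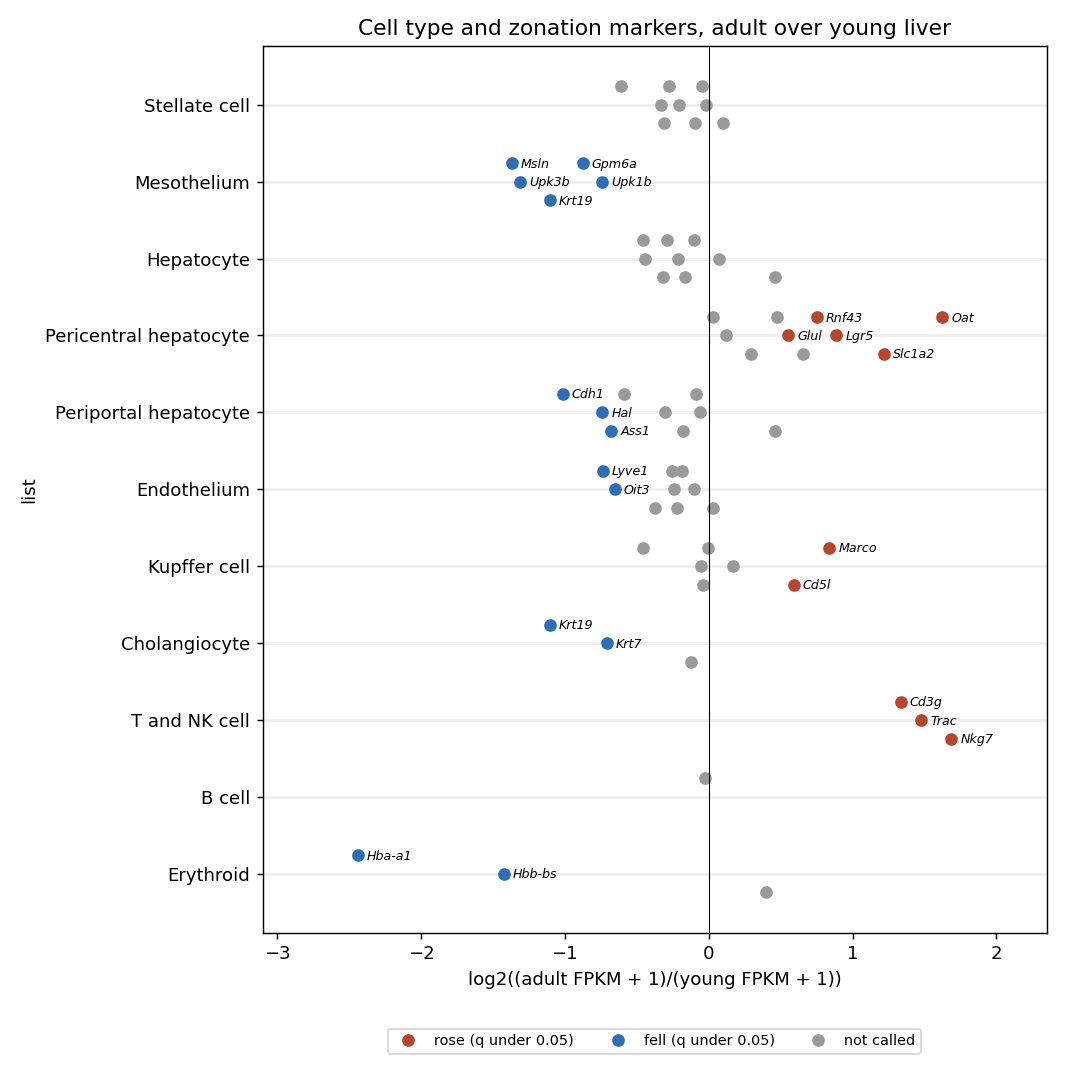
Difference between ages, log2((adult FPKM + 1)/(young FPKM + 1)), for each compared marker of 11 cell type and hepatocyte position lists (1 point a gene; vertical offsets only separate points). Named points passed the q-value threshold of 0.05; the 5 compared mesothelial markers lie to the left, pericentral markers to the right, and no stellate cell or hepatocyte marker is named.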

How the data were processed

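Liver RNA of wild-type male C57BL/6 mice was sequenced at 2 ages, with 3 libraries a group and 3 mice pooled per library. Per the labels' protocols, RNA had an integrity number of 8 or more, an Illumina TruSeq kit was used, and libraries averaged about 30000000 reads. Nothing says whether the pools of an age were made on separate days, so q-values measure only the spread between these pools. Per the submitters' processing notes, TopHat2 2.0.11, Cufflinks 2.2.1, Cuffdiff and the build GRCm38 were used. No source names the normalization, annotation release or strand.

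The authors deposited 1 FPKM value per gene and age. Each gene also has a deposited log2 fold, score of the test, p-value and q-value. The deposited score was not used. Depth behind each value is unknown: the lowest non-zero values of single-transcript genes, multiplied by length in kb, within a window set after seeing them, had medians of 0.00717 in adult and 0.00759 in young liver, and their steps were too blurred to recover whole reads.

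Here genes with status OK and at least 1 FPKM at either age were kept, and folds are log2((adult FPKM + 1)/(young FPKM + 1)), which understates changes of low genes. No test of this work's own was possible with 1 value per age, and none was made. The 8 genes, the gene and marker lists and the choice of promoters were made with earlier results of these data known. Named genes are all 8; of each role list, every called gene and the 2 highest uncalled ones; of each marker list, up to 2, called first; and the nearest compared gene on either side. Hnf4a, Stra6, Stra6l, Lrat, Cyp26c1, Clec4f, Cd3g, Upk1b, Alas2, Pck1, Rarb's promoter, the other Rdh16 relatives and the DR5 genes were named in addition, after their values were seen. A pathway gene is not reported here and was left out of the lists and their counts. The markers Rhbg and Trbc2 were not used here, having no matching symbol. Positions are the table's, and all 8 overlap the same gene in GENCODE M21. Coding sequences were aligned globally with Biopython 1.88, for the transcript of each gene with the longest coding sequence, those in CCDS first. Adjustment, alignment and motif search were tested on simulated data. Alternatives are given below.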

Additional observations from a re-analysis of the deposited data

How the results depend on the processing

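Some counts and medians depended on the thresholds and filters. Of 53 alternative values, 46 kept their direction and call, or a count within 1.5 times, or a median of the same sign within 0.05. The 7 that moved were all counts or medians. The 46 include folds of the 8 genes under another pseudocount or rescaling, which were bound to keep their sign. A constant added at both ages cannot change a sign, and the shift of 0.0033 was below the smallest fold (0.026, Rbp4). With q under 0.01, 1 of the 8 genes rose (Rdh16), since Cyp26a1 was no longer called; with q under 0.1, or with the deposited p-values adjusted by Benjamini-Hochberg over all 16290 tested genes, the same 3 of the 8 were called, and Rdh16f2 was added to the fallen pathway genes (6 instead of 5). The pathway genes Rdh9 and Bco1 were also no longer called with q under 0.01. With no minimum on FPKM 2 of the 8 fell, Aldh1a2 joining Cyp26b1. With at least 5 FPKM 0 fell, since both were removed; the median log2 fold of the 8 was then 0.16 instead of 0.08, 2 pathway genes fell instead of 5, and the pathway median was 0.026 instead of -0.02; with no minimum it was 0.0037. A pseudocount of 0.1 FPKM, no pseudocount and rescaling to a median of 0 left the sign of all 8 folds as it was; with no pseudocount the Aldh1a2 fold was -2.13. No paired analysis was possible because the table gives 1 value per age, and no library could be left out for the same reason. Depth is unknown, so no counting error can be given.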
